A study of Mus musculus with 12 samples.

Results

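The regions described here are the autosomal H3K9me2 regions that the deposited tables list with no overlapping gene and at a distance of at least 500 kb from the nearest transcription start. They number 300 of 33787 regions in the table of FAD against WT mice and 414 of 43680 regions in the table of FAD-BIX against FAD mice, and cover 532 distinct positions. H3K9me2 was profiled by ChIP-seq, in which chromatin bound by an antibody is pulled down and its DNA sequenced, in punches of the prefrontal cortex from C57BL/6 mice of 5 to 6 months. The groups were 2 wild-type mice (WT), 2 mice that carry mutations of familial Alzheimer's disease (FAD), and 2 such mice treated with BIX01294 (FAD-BIX), and each mouse gave 1 ChIP and 1 input library. The labels name neither the mutations nor the promoter that drives them, nor the dose or length of the treatment. FAD and FAD-BIX mice both carry the mutations, BIX01294 was given to FAD mice alone, and the FAD libraries serve in both comparisons. The purpose stated for the series was to examine this mark in FAD mice and under an inhibitor of EHMT1 and EHMT2.

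H3K9me2 is the dimethylated form of lysine 9 of histone H3. It is written mainly by the methyltransferase pair EHMT1 and EHMT2 (GLP and G9a), is associated with repressed chromatin, and forms wide domains over gene-poor, lamina-associated DNA. Gene deserts are long stretches without protein-coding genes. Many lie beside developmental or neuronal genes, and some hold distant enhancers of those genes.

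The deserts as found by this rule were only in part deserts of coding genes. Of the regions, 211 of 300 and 304 of 414 lay at least 500 kb from any RefSeq protein-coding gene body (GRCm38.p6), and 103 and 143 lay at least 1 Mb away. Another 16 and 17 overlapped a coding gene, far from its start. These were 13 and 14 regions in Ptprd, a receptor tyrosine phosphatase that organises synapses, 2 and 2 in Rbfox1, a neuronal splicing regulator, and 1 and 1 in Rarb, a retinoic acid receptor. A further 11 and 29 overlapped a RefSeq noncoding gene or pseudogene, among them 7 regions of the second table in 4930578E11Rik. Only 8 and 12 regions were at least 500 kb from every RefSeq gene of any kind, and the median distance to one was 87590 and 87937 bp. The rule also missed most sites far from coding genes: 5425 and 7189 autosomal regions lay at least 500 kb from a coding gene body. Every region met the rule through an empty overlap mark, and none was marked intergenic. The distance was to an unnamed gene in 219 and 310 regions. A named closest gene was given for 81 (27%) and 104 (25.1%), against 25.2% and 25% of all regions.

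Chained where neighbouring centres were under 1 Mb apart, the regions fell into 38 deserts, of which 35 held regions of both tables, 1 held regions of the first table alone and the others of the second alone. Chromosomes 14, 15 and 18 held 224 (74.7%) and 305 (73.7%) of the regions, although they held 14.7% of all autosomal regions in each table. A total of 10 autosomes had a desert and the other 9 had none. On those 9 the largest distance of any region ran from 310391 bp on chromosome 9 to 497610 bp on chromosome 13. Yet each of the 19 autosomes had gaps of at least 1 Mb between coding genes in RefSeq, from 5 on chromosome 19 to 22 on chromosomes 1 and 3. Measured to coding gene bodies, chromosome 3 held 487 and 661 regions at least 500 kb away and chromosome 14 held 449 and 576. Chromosomes 14, 15 and 18 together held 18.6% and 18.1% of the regions so far from coding genes. Their excess over 14.7% was thus much smaller by this measure than by the deposited distance, which also counts starts of unnamed genes.

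**Figure D1:**
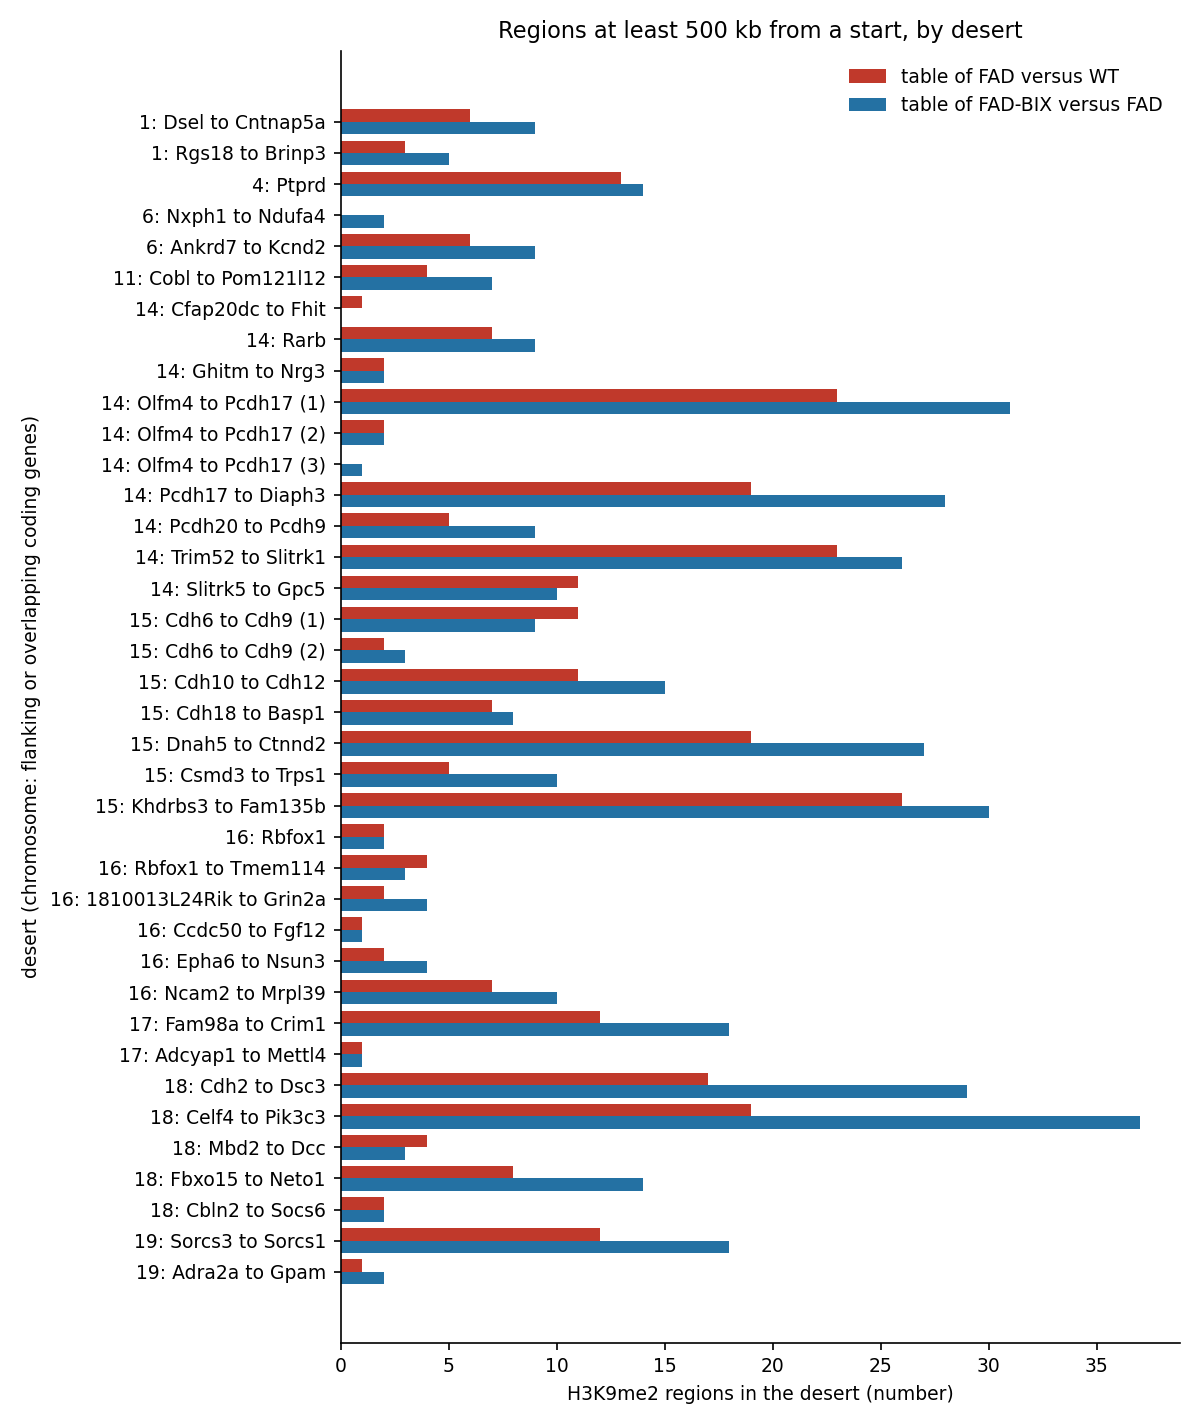
Number of regions (x axis) in each of the 38 deserts (y axis, named by chromosome and the flanking or overlapping coding genes), with red bars for the table of FAD versus WT and blue bars for the table of FAD-BIX versus FAD. The desert between Khdrbs3 and Fam135b holds the most regions in the first table (26) and the desert between Celf4 and Pik3c3 the most in the second (37).

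The 5 fullest deserts held 110 regions (36.7%) in the first table and 155 (37.4%) in the second. The stretch between Khdrbs3, an RNA-binding protein gene, and Fam135b spanned 1002.7 kb at chr15:70187857-71190545 (GRCm38) and held 26 and 30 regions. The stretch of 1015.9 kb at chr14:80866180-81882106, between Olfm4 and the protocadherin gene Pcdh17, held 23 and 31. On the other side of Pcdh17, chr14:84944671-85803785 held 19 and 28 regions before Diaph3, a formin gene. Between Trim52 and Slitrk1, a synaptic transmembrane protein gene, chr14:107279772-107858006 held 23 and 26. The stretch at chr15:28711597-29206422 lay between Dnah5, an axonemal dynein, and Ctnnd2, which encodes the neuronal delta-catenin, and held 19 and 27. On chromosome 18, 28835541 to 29749182 between Celf4, an RNA-binding protein gene, and Pik3c3, a class III phosphoinositide kinase gene, held 19 and 37 regions, and 18600202 to 19207073 between Cdh2 (N-cadherin) and the desmocollin gene Dsc3 held 17 and 29. Smaller groups of 12 and 18 regions lay between the sorting receptor genes Sorcs3 and Sorcs1 (chr19:48844302-49189234) and between Fam98a and Crim1 (chr17:76839780-77173993). At the other end, 4 and 3 deserts held a single region. The distance between the coding genes on either side of a desert had a median of 2.14 Mb, counted across a coding gene that the desert overlaps. It ran from 0.62 Mb between Mbd2 and Dcc to 5.56 Mb between Dmac1 and Tyrp1, a stretch that holds Ptprd. Among deserts that overlap no coding gene the largest was 4.54 Mb, between Pcdh20 and Pcdh9. No RefSeq gene lay in 17 of the 38 spans, only noncoding genes or pseudogenes in 18, and part of a coding gene in 3.

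Genes of cell adhesion and axon guidance flanked many of these deserts. At least 1 of the flanking coding genes was on the adhesion and guidance list in 17 of the 38 deserts (44.7%), against 60 of the 258 autosomal coding gaps of at least 1 Mb (23.3%). The deserts share flanks, and the list was drawn up with earlier results of these data known, so the 2 shares are a description. Cadherin genes, which encode calcium-dependent adhesion proteins, flanked 5 deserts with 48 and 64 regions (Cdh6, Cdh9, Cdh10, Cdh12, Cdh18 and Cdh2). Protocadherin genes flanked another 5 with 49 and 71 regions (Pcdh17, Pcdh20 and Pcdh9). Slitrk1 and Slitrk5 flanked 2 deserts with 34 and 36 regions. The remaining flanks on the list were Cntnap5a, the ErbB4 ligand gene Nrg3, the ephrin receptor gene Epha6, the netrin receptor gene Dcc and the synaptic organiser gene Cbln2. Ion channel and receptor genes flanked 3 deserts (7.89%, against 7.36% of the gaps): Kcnd2, a potassium channel, Grin2a, an NMDA receptor subunit, and Adra2a, an adrenergic receptor. No desert had a flank among the listed developmental transcription factors, which flanked 10.5% of the gaps, or among chemosensory receptors. Trps1 and Thrb, which flank deserts, and Rarb, which overlaps a desert, were not on that list of transcription factors. The absence therefore holds for the listed genes alone.

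The named closest genes in the tables repeated part of these flanks. In the second table they were Pik3c3 for 20 regions, Pcdh17 for 16, Dnah5 and Fam135b for 12 each, Cdh10 for 9, Timm21 for 8, Cdh6 for 7, Rarb for 6 and Rbfox1 for 4. In the first they were led by Fam135b (12) and by Pcdh17, Dnah5 and Pik3c3 (10 each). Listed adhesion and guidance genes were the closest gene of 25 regions (8.33%) and 33 regions (7.97%), against 1.3% and 1.37% of all autosomal regions. These regions came from Pcdh17 (10 and 16), Cdh10 (6 and 9), Cdh6 (8 and 7) and Cbln2 (1 and 1) alone. Neighbouring regions share a gene and are not separate observations, so the shares are a description.

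The regions themselves were narrow. Their median width was 322 bp (range 240 to 1037) and 335 bp (range 240 to 1155), against 329 and 325 bp for all autosomal regions. The widest of the first table, chr14:85164685-85165722, lay in the desert between Pcdh17 and Diaph3, and the widest of the second, chr16:81943554-81944709, lay between Ncam2, a neural adhesion gene, and Mrpl39. Distances to a start had medians of 602671 and 603700 bp. The farthest region, in both tables, was chr14:81370494-81370769 at 1013897 bp, between Olfm4 and Pcdh17, and it overlapped the RefSeq pseudogene Cyp2c73-ps. Besides it, 3 regions of the second table were at least 1 Mb away, all between Khdrbs3 and Fam135b. Just inside the limit, the first table held chr18:18600202-18600799 at 500940 bp with 12 and 32 reads in the FAD mice, next to 18 and 25 in the WT mice. Just outside it lay chr16:6475166-6475458 in Rbfox1 at 499727 bp with 8 and 22 reads in the FAD mice, next to 21 and 11 in the WT mice.

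Most regions, in the deserts as elsewhere, rested on the call of a single library. Of the 300 regions of FAD against WT, 284 (94.7%, against 95% of all autosomal regions) were called in 1 library alone and 16 in 2. For FAD-BIX against FAD, 388 (93.7%, against 93.5%) were called in 1, 24 in 2 and 2 in 3. No desert region was called in each of the 4 ChIP libraries, and only 39 of 33490 and 50 of 43268 autosomal regions were. FAD ChIP 2 called 184 (61.3%) of the first table's desert regions, the library labelled FAD 1 called 32 (10.7%), and the WT libraries called 65 (21.7%) and 35 (11.7%). Among all autosomal regions of that table the shares were 64.6%, 11.4%, 17.4% and 12.2%. Of the second table's, FAD ChIP 2 called 181 (43.7%), FAD-BIX 1 and 2 called 118 (28.5%) and 111 (26.8%), and the library labelled FAD 1 called 32 (7.73%). Among all autosomal regions of that table these shares were 50.2%, 22.4%, 25.9% and 8.84%. The desert regions thus held fewer calls of FAD ChIP 2 and more of FAD-BIX 1 than the table at large. The 2 regions called in 3 libraries were chr18:29054005-29054645, between Celf4 and Pik3c3, with 18 and 24 reads in the FAD-BIX mice, against 32 and 34 in the FAD mice, and chr1:114528069-114528696, between Dsel and Cntnap5a, with 29 and 10 in the FAD-BIX mice, against 25 and 28 in the FAD mice.

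Depth and 1 library limit all values that follow. ChIP libraries held 20.45 to 26.58 M reads and inputs 13.92 to 23.76 M, which left a median of 11 to 20 reads per desert region in ChIP and of 2 to 4 in input. The mouse labelled FAD 1 stood apart at Thy1, a neuronal surface protein gene whose promoter often serves in transgenes: over its region in the first table the inputs held 24.1 RPM (reads per 1 M library reads) in FAD 2 but 0.627 in FAD 1, next to 0.0842 and 0.692 in WT. Over 24 regions of heart muscle genes its ChIP library held 56 RPM, against 20 in FAD 2 and 11.1 and 8.73 in WT. It is called the library labelled FAD 1 for that reason, and results are given without it where they rest on it. No label says that same-numbered mice are related. The p-values rest on the spread between 2 mice a group, moderated towards that of all regions fitted. Where 1 library was left out, its group had no spread of its own.

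Signal over input in the deserts was at about the level of regions elsewhere in every mouse. Since each region entered a table through a call in at least 1 library, part of this excess follows from the choice of regions. In the first table ChIP over input, each as RPM with 1 read added, had a median log2 ratio over the 300 regions of 1.05 in the mouse labelled FAD 1 and 2.15 in FAD 2, and 1.28 and 0.83 in WT. The medians over all autosomal regions were 1.08, 2.26, 0.96 and 0.87. The group means in the deserts were 1.60 ± 0.778 in FAD and 1.05 ± 0.318 in WT (SD, n = 2), and the groups overlapped, since the mouse labelled FAD 1 lay between the WT mice. Over the regions that a library had not itself called, the medians were 0.90 in the mouse labelled FAD 1, 1.12 in FAD 2, and 0.96 and 0.71 in WT. In the second table the medians were 1.29 and 1.56 in FAD-BIX, 0.95 in the mouse labelled FAD 1 and 1.86 in FAD 2, so both FAD-BIX mice lay between the FAD mice. The group means were 1.43 ± 0.191 in FAD-BIX and 1.41 ± 0.643 in FAD (SD, n = 2). Over regions not called in the library itself the medians were 0.77 and 0.93 in FAD-BIX, and 0.79 and 1.12 in the mice labelled FAD 1 and FAD 2. When regions that FAD ChIP 2 alone had called were left out, the group means were 1.52 for FAD next to 1.72 for WT. This turns their order, in part by construction. Medians over all autosomal regions so chosen were 1.45 and 1.24 in FAD, next to 1.69 and 1.38 in WT. For the second table the group means were then 1.92 for FAD-BIX next to 1.21 for FAD. There the medians over all autosomal regions so chosen were 1.69 and 2.15 in FAD-BIX, next to 1.20 and 1.22 in FAD. Ratios above input were found in 239 and 279 (FAD) and 251 and 250 (WT) of the 300 regions (79.7%, 93%, 83.7% and 83.3%). Among all autosomal regions these shares were 83.3%, 94.2%, 81.3% and 79.5%. In bulk tissue, fewer cells that carry the mark at a site and less mark per cell cannot be told apart.

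**Figure D2:**
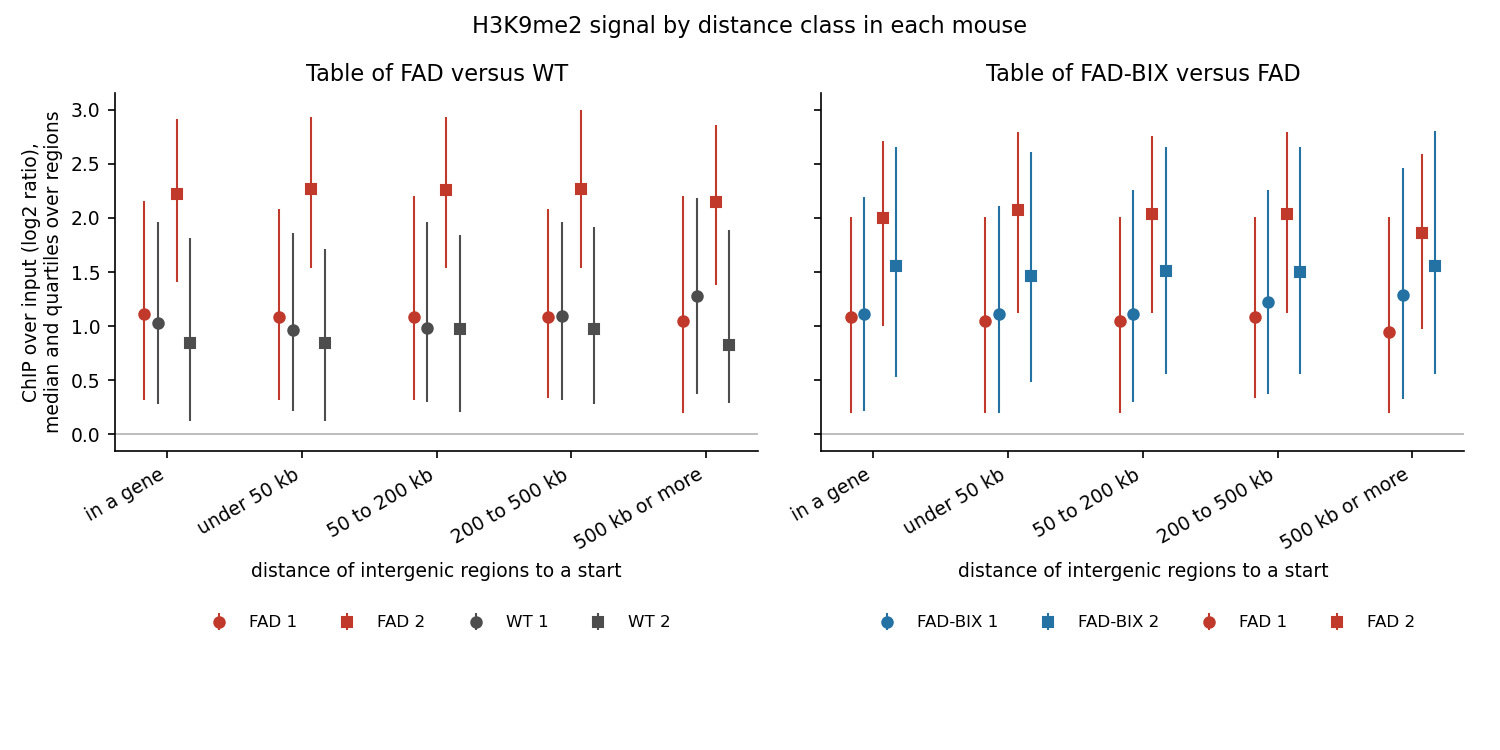
Log2 ratio of ChIP to input (y axis; points are medians and bars the quartiles over regions) in regions centred in a gene and in intergenic regions by distance to a start (x axis), for each mouse (red FAD, grey WT, blue FAD-BIX). In the desert class of the left panel FAD 2 sits at 2.15 and the other mice between 0.83 and 1.28.

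Distance classes within a mouse differed little. In WT 1 the median log2 ratio was 0.96 under 50 kb from a start, 0.98 at 50 to 200 kb, 1.09 at 200 to 500 kb and 1.28 in the deserts, while in WT 2 it was 0.84, 0.97, 0.97 and 0.83. In the mouse labelled FAD 1 it was 1.08 in each of the nearer classes and 1.05 in the deserts. FAD 2 had 2.27, 2.26, 2.27 and 2.15 in the same order. The mouse FAD-BIX 1 had 1.11, 1.11, 1.22 and 1.29, while FAD-BIX 2 had 1.46 to 1.51 in the nearer classes and 1.56 in the deserts. The deserts thus had the highest median of the 4 intergenic classes in WT 1, FAD-BIX 1 and FAD-BIX 2, and the lowest in WT 2, the mouse labelled FAD 1 and FAD 2 in the first table.

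Summed per desert, ChIP exceeded input almost everywhere, which follows in part from the choice of called regions. How often summed regions outside the deserts exceeded input was not computed. For FAD against WT, 34 of the 36 deserts were above input in all 4 mice. The exceptions were 2 deserts with a single region each, between Cfap20dc and Fhit and between Adcyap1 and Mettl4, where the mouse labelled FAD 1 had a log2 ratio of -0.21. In the second table this held for 33 of 37. All 13 and 15 deserts with at least 10 regions were above input in every mouse, with log2 ratios of 0.49 to 3.03 and of 0.35 to 2.93. In RPM, FAD ChIP 2 was the highest library in 31 of 36 and 25 of 37 deserts, including 13 of 13 and 13 of 15 with at least 10 regions. This order is set in part by the choice of regions. A call in FAD ChIP 2 alone brought in 171 of 300 (57%) and 162 of 414 (39.1%). Among all autosomal regions these shares were higher, at 60.3% and 44.9%. Without the desert regions called in FAD ChIP 2 alone, that library was the highest in 6 of the 30 deserts left in the first table. In the second it was the highest in 1 of the 34 left. The library labelled FAD 1 was the lowest in 14 of those 15 deserts of the second table.

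**Figure D3:**
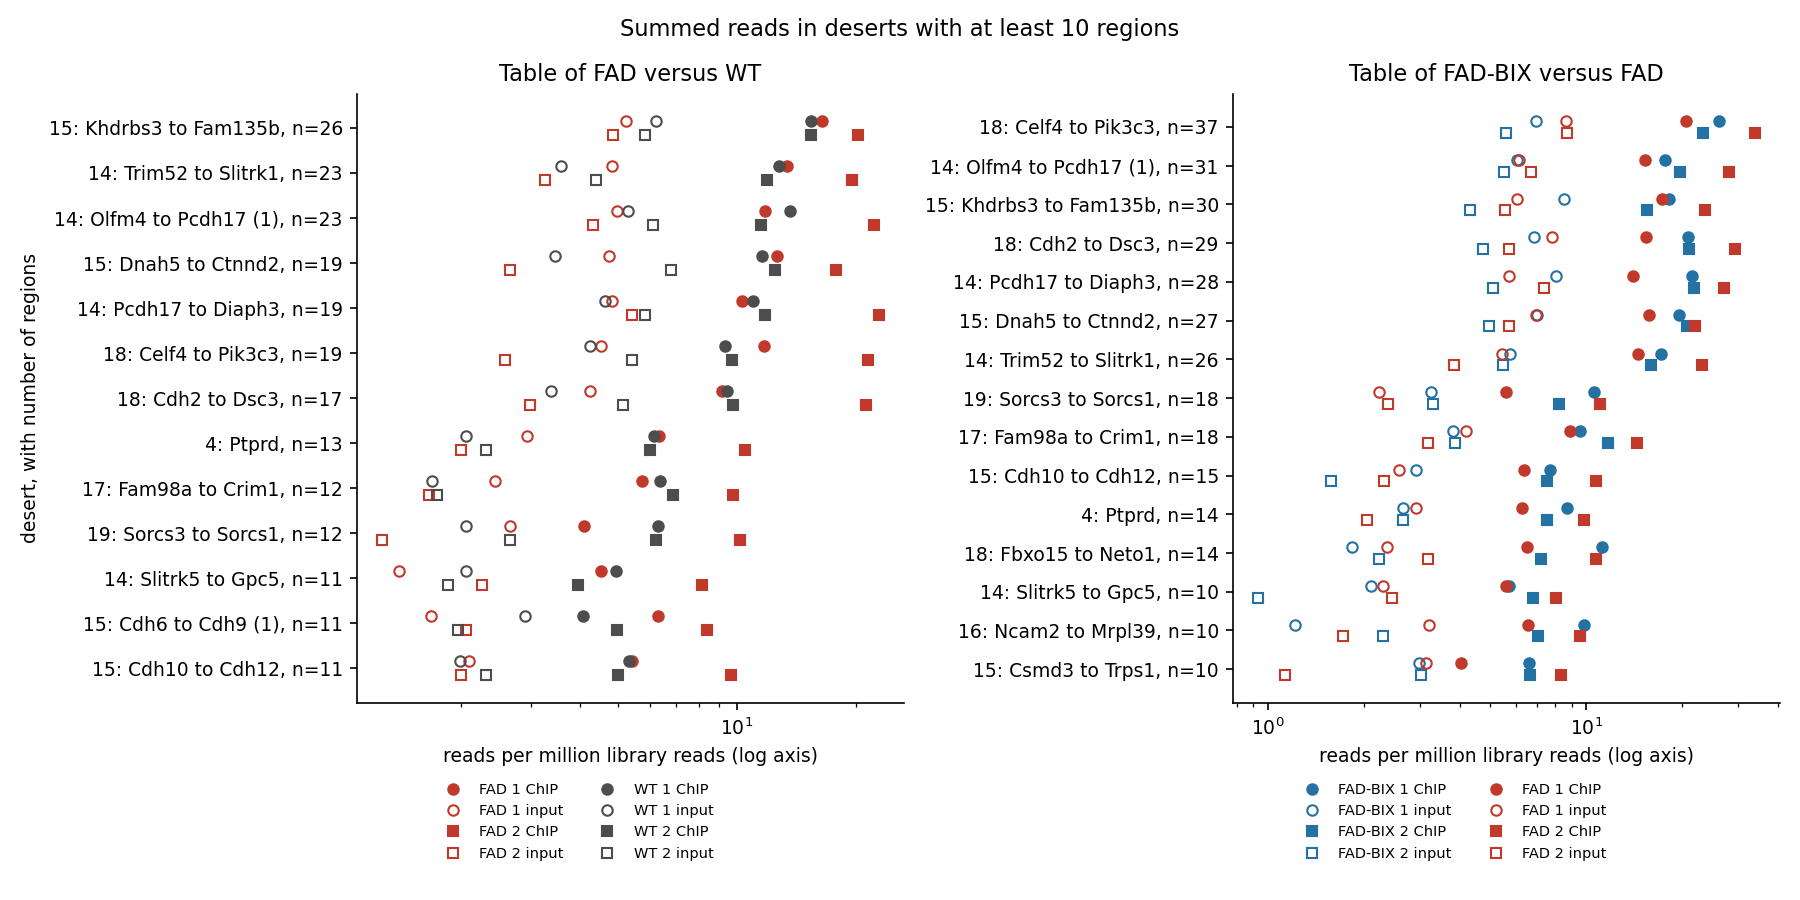
Summed RPM (x axis, reads per 1 M library reads, log scale) in the deserts with at least 10 regions (y axis, n is the number of regions), with filled symbols for ChIP, open symbols for input, circles for replicate 1 and squares for replicate 2. FAD ChIP 2 (filled red squares) is the highest library in 13 of 13 deserts on the left and 13 of 15 on the right. Of the regions in all deserts, 171 (57%) and 162 (39.1%) were called in that library alone, against 60.3% and 44.9% of all autosomal regions. Every ChIP value exceeds the input of the same mouse.

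Between FAD and WT mice, no desert region passed the test. Of the 300 regions 243 passed the filter on low counts, and 0 were called at an adjusted p of 0.05 by edgeR's quasi-likelihood test across all 27778 regions tested (0% called over the whole table). The smallest adjusted p among them was 0.832, and DESeq2 also called 0. At an unadjusted p under 0.05, 1 was higher (0.918% of all regions were) and 10 were lower (4.97% of all), where 4.12% of the desert regions is close to the share of the table. The median log2 fold was -0.03, beside 0.01 over all regions tested, and 115 of 243 were above 0 (50.6% of all regions were). Both FAD libraries were above both WT libraries in 45 (18.5%, against 18.7% of all) and below both in 43 (17.7%, against 16.1%). Among the 22 tested regions whose closest gene was on the adhesion and guidance list, 0 were called, 0 had an unadjusted p under 0.05 and the median log2 fold was 0.22. Scaled by library totals instead, the median was 0.60 in the deserts and 0.64 over all regions, with 180 of 243 above 0, so the sign depends on the scaling. With limma on ChIP over input they were 0.46 and 0.77.

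The regions with the smallest p give the size of single differences. At chr16:27918485-27919164, between Ccdc50 and Fgf12, whose product modulates sodium channels, the libraries held 18 and 44 reads in the FAD mice, next to 9 and 10 in the WT mice. Both FAD mice were above both WT mice, with a log2 fold of 1.21 ± 0.52 (SE, n = 2) and an adjusted p (edgeR quasi-likelihood) of 0.832. At chr15:29157421-29157734, between Dnah5 and Ctnnd2, the reads were 6 and 10 in the FAD mice, next to 13 and 28 in the WT mice, a log2 fold of -1.75 ± 0.59 with the same adjusted p. A second region of that desert, chr15:28944857-28945224, held 10 and 7 reads in FAD against 27 and 15 in WT. Between Dsel and the contactin-associated gene Cntnap5a, chr1:114566620-114567079 held 12 and 20 reads in the FAD mice, next to 23 and 30 in the WT mice, a log2 fold of -1.16 ± 0.46. In the stretch between Celf4 and Pik3c3, chr18:29496277-29496911 had the opposite order, with 22 and 31 reads in the FAD mice, next to 8 and 11 in the WT mice. As single regions none of these passed the test under any alternative, where the lowest adjusted p of a region named here was 0.115.

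Single deserts also differed by less than the test could call. With reads summed per desert, 36 were tested beside 1-Mb windows of all other autosomal regions, and 0 were called of 2277 (0% called in all). At an unadjusted p under 0.05, 1 was higher (2.68% of all) and 0 were lower (2.77% of all). That one is the desert between Ccdc50 and Fgf12, which consists of the single region above. Fitted among the deserts and windows, it was called with library totals and without the library labelled FAD 1 (log2 fold 2.49, adjusted p 0.00706 by edgeR's quasi-likelihood test), where 1780 of 2305 were. The median log2 fold was -0.08, and 10 of 36 were above 0 (27.8%, against 48.7% of all), which became 31 of 36 with library totals and 29 of 36 with limma on ChIP over input (median 0.56, against 0.83 over all). FAD was above WT in both mice in 4 deserts (11.1%, against 18%) and below in 10 (27.8%, against 17.8%).

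Among the larger deserts of this comparison the order was as follows. Between Sorcs3 and Sorcs1 the libraries held 102 and 213 reads in the FAD mice, next to 154 and 166 in the WT mice. Relative to the reads in all regions, both FAD mice were below both WT mice there, with a log2 fold of -0.41 ± 0.21 (SE, n = 2; adjusted p 0.823 by edgeR's quasi-likelihood test). Between Fam98a and Crim1 they held 143 and 203 against 156 and 183, a log2 fold of -0.31 ± 0.18. Between Celf4 and Pik3c3 they held 292 and 448 against 228 and 258, and both FAD mice were above both WT mice (log2 fold 0.25 ± 0.15, adjusted p 0.823 in the same test). The deserts on both sides of Pcdh17 had log2 folds of -0.12 ± 0.15 and -0.04 ± 0.16, and that in Ptprd -0.07 ± 0.18, each with overlapping groups.

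A few calls appeared when the library labelled FAD 1 was left out, which leaves FAD ChIP 2 as the lone FAD library. Then 3 of 292 desert regions tested were called, all lower in FAD, and 119 of 32835 regions were called over the whole table. One is chr11:13625040-13625390, between Cobl, an actin nucleator gene, and Pom121l12, with 0 reads in FAD ChIP 2, 7 in that labelled FAD 1, and 22 and 14 in WT mice. Another is chr15:70626397-70626994, between Khdrbs3 and Fam135b, with 3 and 18 reads in those FAD libraries and 16 and 33 in WT. The last is chr16:6536688-6537187 in Rbfox1, with 0 and 19 reads against 12 and 30 (adjusted p 0.00772 in edgeR's quasi-likelihood test without the library labelled FAD 1). The summed stretch of 2 regions in Rbfox1 was called as well, with 3 reads in FAD ChIP 2, 29 in that labelled FAD 1, against 30 and 36 in WT (adjusted p 0.0159 in the same test, where 17 of 2305 windows and deserts were called). These calls rest on FAD ChIP 2 as the FAD library. In RPM the library labelled FAD 1 was below both WT libraries at the site beside Cobl and lay between them at the other 2 regions.

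Between FAD-BIX and FAD mice, no desert region passed the test either, and the deserts leaned towards FAD-BIX relative to the table as a whole. Of the 414 regions 316 were tested and 0 were called by edgeR's quasi-likelihood test over 31055 regions (0% called over the whole table), with a smallest adjusted p of 0.897, and DESeq2 called 0. At an unadjusted p under 0.05, 18 were higher in FAD-BIX (5.7%, against 3.93% of all) and 2 were lower (0.633%, against 1.18%). The median log2 fold was 0.19, beside 0.03 over all regions, and 186 (58.9%, against 51.7%) were above 0. Leaving out 1 library moved the desert median to between 0.11 and 0.32. Over the 5429 tested regions at least 500 kb from a RefSeq coding gene body it was 0.09, with 54.6% above 0. Both FAD-BIX libraries were above both FAD libraries in 76 regions (24.1%, against 17.5%) and below both in 44 (13.9%, against 18.8%). With library totals as the scaling the medians were -0.18 in the deserts and -0.34 over all regions, and 126 of 316 were above 0, so the lean holds relative to the other regions and not in RPM. With limma on ChIP over input they were -0.19 and -0.32. Among the 25 tested regions whose closest gene was on the adhesion and guidance list, 0 were called, 2 had higher and 1 had lower values at an unadjusted p below 0.05, and the median log2 fold was 0.15.

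**Figure D4:**
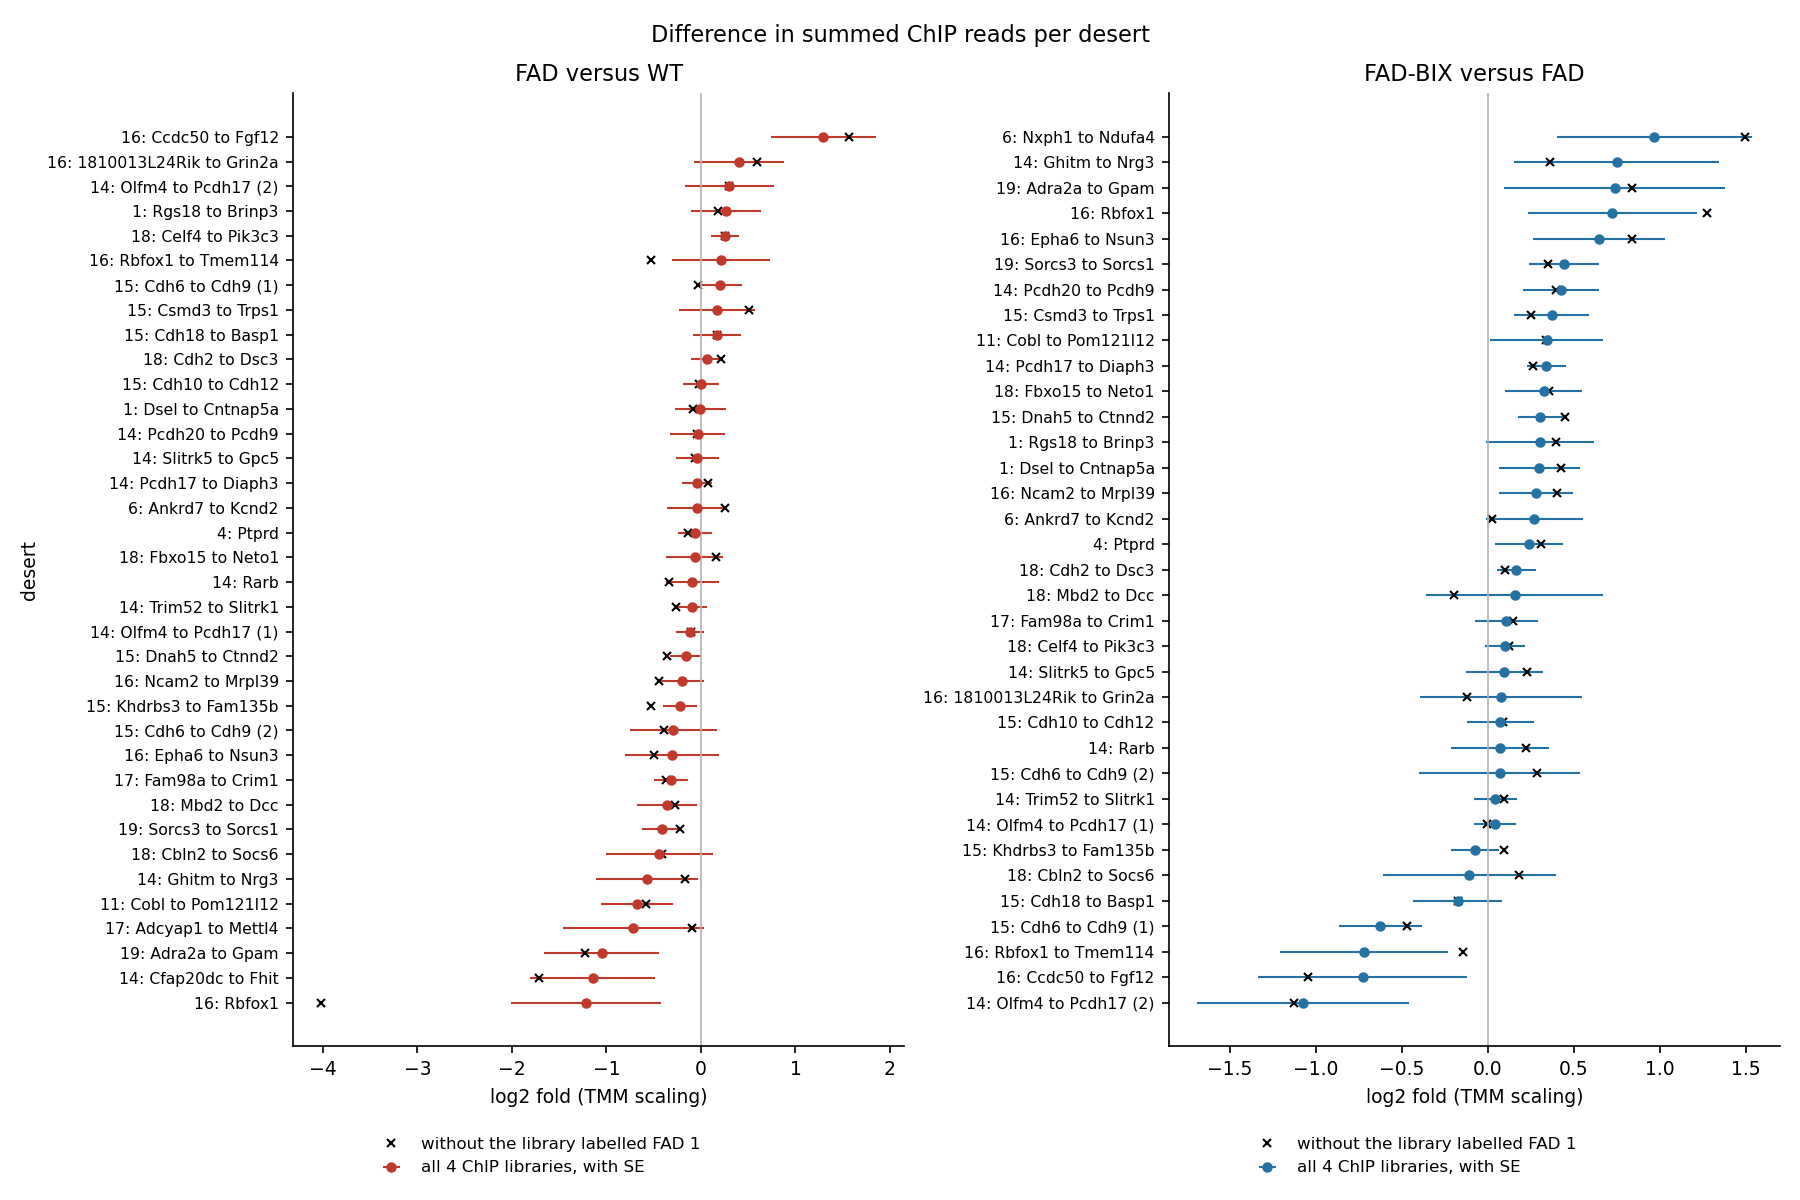
Log2 fold of summed ChIP reads (x axis, TMM scaling, bars are SE) for each desert tested (y axis, sorted), with crosses for the fit without the library labelled FAD 1. On the left 10 of 36 deserts lie above 0, and on the right 28 of 35.

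Per desert the lean was of similar size, with a larger share of log2 folds above 0. Of 35 deserts tested 0 were called of 2299 (0% called in all), and at an unadjusted p under 0.05, 2 were higher (3.35% of all) and 1 was lower (3.57% of all). The log2 fold was above 0 in 28 of 35 (80%, against 48.8% of all deserts and windows), with a median of 0.17 against -0.01. The deserts are sums of called regions. FAD-BIX 1 and 2 alone had called 24.4% and 23.4% of these, and FAD ChIP 2 alone 39.1%. Among all autosomal regions the shares were 19.4%, 22.3% and 44.9%. How far the lean of the deserts follows from these calls was not tested. FAD-BIX was above FAD in both mice in 13 (37.1%, against 18.1%) and below in 3 (8.57%, against 19.4%). Without the library labelled FAD 1, 28 of 37 were above 0, and without FAD ChIP 2, 25 of 36. With library totals 16 of 35 were above 0 and the median was -0.09, against -0.24 over all. With limma on ChIP over input, 16 of 35 were above 0 as well.

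The desert between Pcdh17 and Diaph3 had the smallest p. Its 28 regions held 440 and 479 reads in FAD-BIX, 350 in that labelled FAD 1, next to 562 in FAD ChIP 2. Relative to the reads in all regions both FAD-BIX mice were above both FAD mice (log2 fold 0.34 ± 0.11, SE, n = 2, adjusted p 0.7 by edgeR's quasi-likelihood test). In RPM, however, FAD ChIP 2 was the highest there at 27, with 21.5 and 21.8 in FAD-BIX and 14 in the library labelled FAD 1. Between Dnah5 and Ctnnd2 the reads were 399 and 455 in the FAD-BIX mice, against 391 and 458 in the FAD mice, a log2 fold of 0.31 ± 0.13. Between Sorcs3 and Sorcs1 they were 217 and 181 against 140 and 229 (log2 fold 0.44 ± 0.20), and between Pcdh20 and Pcdh9 120 and 139 against 97 and 144 (0.42 ± 0.22). Each of these had both FAD-BIX mice above both FAD mice on the relative scale, and none passed the test.

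The clearest desert in the other direction lay between Cdh6 and Cdh9 (chr15:13675502-13938342). There 9 regions held 73 and 99 reads in the FAD-BIX mice, against 151 and 174 in the FAD mice, so that both FAD-BIX mice were below both FAD mice in raw reads too. The log2 fold was -0.62 ± 0.24 (SE, n = 2), with an adjusted p of 0.7 by edgeR's quasi-likelihood test. The 2 regions at chr14:82885625-82893702, between Olfm4 and Pcdh17, held 8 and 17 reads against 26 and 40. The log2 folds given for cadherin and protocadherin deserts in this comparison thus had both signs, and none of these deserts passed the test.

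Other large deserts beside neuronal genes give the usual order of the libraries. In Ptprd, 14 regions summed to 8.71 and 7.55 RPM in the FAD-BIX mice, 6.3 in the mouse labelled FAD 1 and 9.81 in FAD 2, a relative log2 fold of 0.24 ± 0.20. Between the type II cadherin genes Cdh10 and Cdh12 the sums were 7.68 and 7.5 RPM in FAD-BIX mice, next to 6.38 and 10.7 in FAD mice, with a log2 fold of 0.07 ± 0.19. Between Cdh2 and Dsc3 they were 20.9 and 21, next to 15.4 and 29.2, with a log2 fold of 0.17 ± 0.11. Before Slitrk1 they were 17.1 and 15.9, next to 14.5 and 23.1, with a log2 fold of 0.04 ± 0.13. In each of these 4 deserts the mouse labelled FAD 1 was the lowest and FAD 2 the highest, so that both FAD-BIX mice lay between the FAD mice in RPM.

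Single regions with the smallest p included chr16:61997923-61998428, between Epha6 and Nsun3, with 10 and 34 reads in the FAD-BIX mice, against 7 and 7 in the FAD mice (log2 fold 2.03 ± 0.69, SE, n = 2, adjusted p 0.897 by edgeR's quasi-likelihood test). At chr15:28892698-28893115, between Dnah5 and Ctnnd2, the reads were 15 and 30 against 10 and 4, a log2 fold of 2.01 ± 0.69. In Rbfox1, chr16:6537166-6537936 held 32 and 35 reads against 22 and 22. Lower in FAD-BIX were chr18:18921662-18922240, between Cdh2 and Dsc3, with 10 and 7 reads against 18 and 35, and chr14:81457509-81458058, between Olfm4 and Pcdh17, with 13 and 8 against 21 and 33. All of these counts are small. The groups did not overlap at any of the 5 regions, which follows in part from their choice by small p and shared direction. On the relative scale they did overlap at chr15:71166558-71166961, chosen by the same rule. Over all regions tested, both FAD-BIX libraries were above both FAD libraries in 17.5% and below both in 18.8%.

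The lean can be restated as the share of each library's reads in autosomal regions that fell in the deserts. This share is drawn from the same counts and regions as the folds, so it adds no separate support. In the second table this share was 0.951% (95% Wilson interval 0.927 to 0.977) and 0.957% (0.933 to 0.983) in the FAD-BIX ChIP libraries, 0.87% (0.846 to 0.893) in the library labelled FAD 1 and 0.856% (0.837 to 0.876) in FAD ChIP 2. The group means were 0.954 ± 0.00429 and 0.863 ± 0.00937 (SD, n = 2), with no overlap, and the deserts made up 0.978% of the covered bases. The exact two-sided permutation test gave p = 0.333, the smallest that 2 mice against 2 allow, so it could not decide. In the inputs the order differed, with 0.805% and 0.896% in the FAD-BIX mice, against 0.917% and 0.872% in the FAD mice. In the first table the ChIP shares were 0.787% and 0.792% in the FAD mice, next to 0.838% and 0.779% in the WT mice, with overlapping groups (exact two-sided permutation p = 1). Intervals cover counting error only.

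The folds of the second table moved with which library had called the regions. A call is made from the same reads as the fold, so the values by call are a description. Of the second table's desert regions, FAD-BIX 1 alone had called 24.4% and FAD-BIX 2 alone 23.4%. For all autosomal regions these shares were 19.4% and 22.3%. Among regions called in FAD ChIP 2 alone, the desert share of region reads was 0.304% and 0.323% in FAD-BIX, 0.324% in that labelled FAD 1, next to 0.48% in FAD ChIP 2. Among the other regions it was 0.647% and 0.634% in FAD-BIX against 0.545% and 0.376% in FAD. The median log2 fold of desert regions was 0.82 where FAD-BIX 1 alone had called them (0.76 for all autosomal regions so called) and 0.59 where FAD-BIX 2 alone had (0.68). It was -0.46 where the library labelled FAD 1 alone had (-0.44) and -0.24 where FAD ChIP 2 alone had (-0.32). The part of the calls in the lean was not tested. In the first table the desert medians were 0.34, 0.15, -1.14 and -1.12 for regions called in the library labelled FAD 1, FAD ChIP 2, WT 1 and WT 2 alone, against 0.36, 0.18, -0.99 and -0.97 for all.

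**Figure D5:**
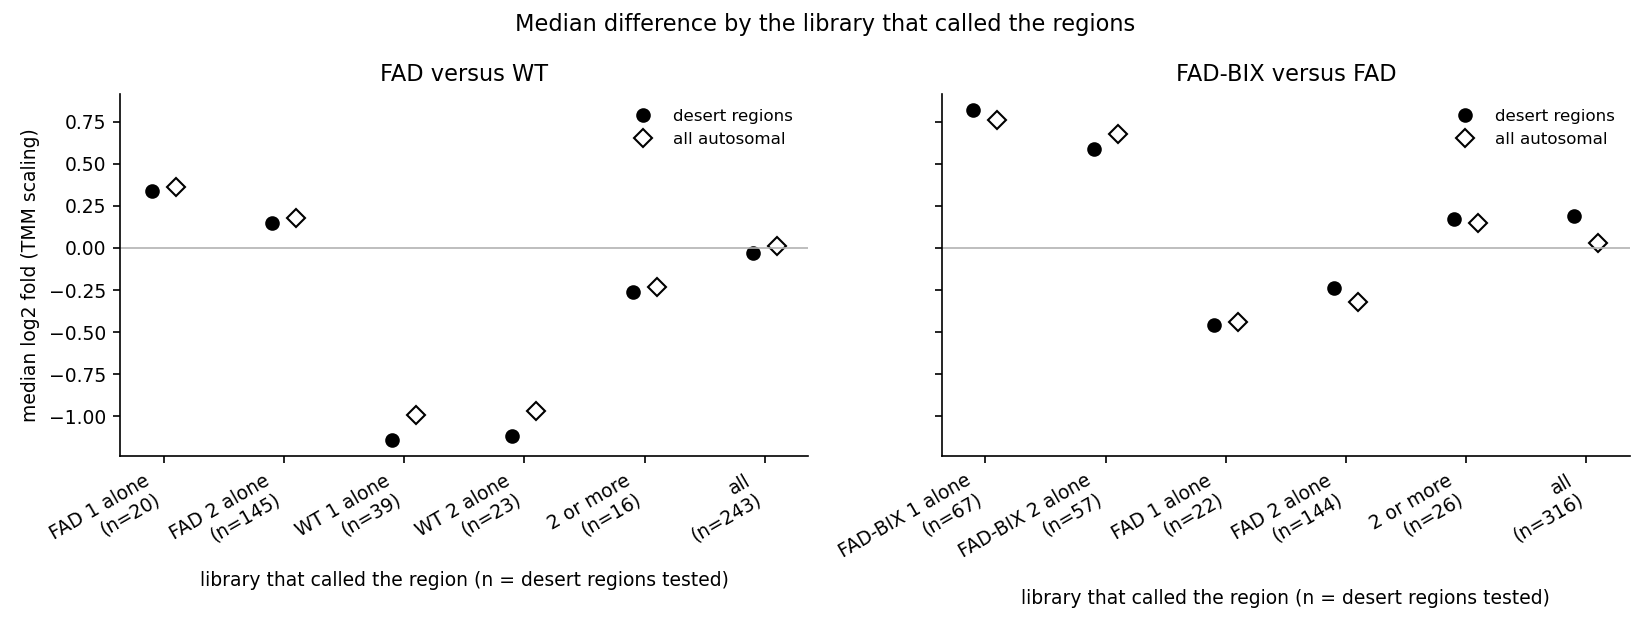
Median log2 fold (y axis, TMM scaling) of the desert regions (filled circles) and of all autosomal regions (open diamonds), split by the library that called the region (x axis, n is the number of desert regions tested). On the right the 2 medians are 0.82 and 0.76, 0.59 and 0.68, -0.46 and -0.44, and -0.24 and -0.32 in the sets called in 1 library, while over all regions they are 0.19 and 0.03.

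A total of 211 desert regions matched between the tables at 50% reciprocal overlap, which is 70.3% of the first table's and 51% of the second's, and 182 had identical coordinates. They lay in 31 deserts. Their median log2 ratio over input was 1.08 and 2.48 in the FAD mice, 0.96 and 0.71 in the WT mice, and 0.79 and 1.08 in the FAD-BIX mice. The tables share only the FAD libraries, and FAD ChIP 2 had called 179 (84.8%) of the matched regions, so its high median there follows in part from the choice of regions. Over the other 32 the medians were 3.16 and 1.41 in the FAD mice, 1.23 and 1.00 in the WT mice, and 0.52 and 1.15 in the FAD-BIX mice, and all but 4 of these were called in the library labelled FAD 1. ChIP exceeded input in all 6 mice at 82 of the 211 matched regions. At only 1 was it at least 2-fold above input in all 6, chr18:29183545-29184031 between Celf4 and Pik3c3, with 23 and 23 reads in the FAD mice, 9 and 37 in the WT mice, and 21 and 12 in the FAD-BIX mice. Between Ncam2 and Mrpl39, chr16:81943814-81944518 held 33 and 38 reads in the FAD mice, 19 and 39 in the WT mice, and 49 and 29 in the FAD-BIX mice, and was above input in each mouse as well. The median of the matched regions was 10 to 22 reads in a library.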

How the data were processed

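H3K9me2 ChIP and input libraries of 6 mice were used. Per the labels' protocols, tissue was cross-linked in 1% formaldehyde for 12 min and read as 50 bp single-end or 150 bp paired-end. FastQC, Trimmomatic, BWA 0.7.12, MACS2 2.1.0 and the build mm9 are named in the submitters' processing notes. Named closest genes nevertheless lay at their RefSeq GRCm38.p6 positions in 99.8% of cases (3485 and 3968 genes), so coordinates are given as GRCm38. How the first base is counted (0 or 1) was not stated in the sources used here.

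Per the file headers, the deposited counts are reads of each library in each region, called per library and then joined. Each deposited RPM value was the count plus 1, per 1 M library reads, and the deposited fold enrichment, a ratio, equalled ChIP RPM over input RPM of the same mouse (largest relative deviation 4.75e-06). The authors' log2 fold change was not used. The authors' deposited p-value was under 0.05 for 8 higher and 5 lower desert regions in the first table (4.33%, against 2.67% of all regions) and for 2 and 4 in the second (1.45%, against 2.09%), and the smallest deposited q-value was 1.

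ChIP counts of whole tables entered the quasi-likelihood test of edgeR 4.0.16 under R 4.3.3 (TMM, default filter, Benjamini-Hochberg, threshold 0.05, no replicate block). Desert regions were chained below 1 Mb and summed, and all other autosomal regions were summed in 1 Mb windows and fitted with them. Alternatives were DESeq2 1.42.0, its size factors, library totals, no filter, a replicate block, each library left out, limma 3.58.1 on ChIP over input, and other definitions of the members. Regions that shared a position were kept once. Shares have Wilson intervals from SciPy 1.17.1. The fits were tested on simulated data. Named regions are, per direction, the 5 of smallest p among those at or above the median level with the same direction in both replicate numbers, the fullest, widest and farthest, those called in 3 libraries, and those beside the 500 kb limit, of which a selection is given. Regions called only without 1 library, and those above input in all mice, were chosen after their values were seen. The members and gene lists were chosen with earlier results of these data known.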

Additional observations from a re-analysis of the deposited data

How the results depend on the processing

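Of the desert regions and deserts, 0 were called in each comparison under DESeq2, DESeq2 size factors, library totals, no filter, limma on ChIP over input and a distance of at least 1 Mb, and also without members in a RefSeq gene and for regions 500 kb from a RefSeq coding gene. Only rows marked intergenic gave no member, hence no value. Leaving out 1 library gave 0 to 3 called regions and 0 to 1 called deserts for FAD versus WT (3 and 1 without FAD ChIP 1, the library labelled FAD 1) and 0 for FAD-BIX versus FAD. With library totals and without that library, alternatives chosen after seeing the data, 21 deserts were called for FAD versus WT, 20 of them higher, beside 1780 of 2305 deserts and windows in all, and 7 for FAD-BIX versus FAD, all lower, beside 1268 of 2333; the cause was not tested. With a replicate block 0 were called in each comparison; same-numbered deviations correlated at 0.057, 0.105, -0.040 and -0.034, and the labels do not pair the mice.

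The median log2 folds moved with the scaling, as given in the text. The mean desert share of the reads in all autosomal regions fell, by construction, without regions called in FAD ChIP 2 alone. It was then 0.299% (FAD) and 0.421% (WT) in the first table, and 0.641% (FAD-BIX) and 0.461% (FAD) in the second. At a distance of at least 1 Mb it was 0.00246%, 0.00123%, 0.00686% and 0.0055% in the same order, and without members in a RefSeq gene (added after seeing the data) 0.718%, 0.741%, 0.847% and 0.768%. The mean of the median log2 ratios of ChIP to input fell to 0.82, 0.56, 0.56 and 0.65 with 5 reads added in place of 1. Without regions called in FAD ChIP 2 alone it was 1.52 (FAD) and 1.72 (WT) in the first table and 1.92 (FAD-BIX) and 1.21 (FAD) in the second. This turns the order of FAD and WT, in part by construction, and all autosomal regions so chosen had the same order. It was 1.62 (WT) and 2.53 (FAD-BIX) at 1 Mb, where 1 and 4 regions remained. Reads per region limit every single-region value, and only relative differences can be seen.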
